A study of Caenorhabditis elegans with 2 samples.

Results

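Transfer RNA (tRNA) genes are described here as sites of peaks of eGFP-tagged NHR-77 in the first larval stage of Caenorhabditis elegans. The genes were all those annotated as tRNA on the 6 nuclear chromosomes, 612 of 46890 annotated genes. A tRNA gene was called bound when the summit of a reproducible peak, the position of highest signal within the peak, lay within 250 bp of the gene's 5' end. By this rule 173 of 612 tRNA genes were bound, through 162 distinct peaks of the 2285 in the reproducible set. The rule for the 612 genes uses the annotation alone, and whether a gene was bound is the result described.

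The study immunoprecipitated an eGFP fusion of NHR-77, a nuclear hormone receptor, from whole L1 larvae of both sexes and sequenced the DNA that came with it (TF ChIP-seq). Both biological replicates came from strain OP353, genotype unc-119(tm4063) III; wgIs353, so all animals carried the unc-119 mutation and the wgIs353 insertion of tagged nhr-77. The promoter and the cells in which the insertion is expressed are not stated in the labels, the age of the larvae is labelled unknown, and whole animals mix all larval cell types. There was 1 group of 2 replicates and no second condition, so values are compared between replicates and between kinds of tRNA genes, without a test of chance. Intervals are exact (Clopper-Pearson) 95% binomial intervals and cover counting error only. The read depth is unknown, since peak lists hold no read counts.

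A tRNA carries one amino acid to the ribosome and reads its codon through a matching anticodon. Most tRNA genes are transcribed by RNA polymerase III from a promoter that lies inside the gene. Its A box and B box, both within the transcribed sequence, are recognised by the factor TFIIIC, which places TFIIIB upstream of the start, and transcription stops in a run of T just past the gene. Animal genomes hold many identical copies of most tRNA genes, and in Caenorhabditis elegans an unusually large number of them lie on the X chromosome.

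Sequences of some bound tRNA genes are shown with their internal promoter letters. The 9 sequences in the next lines are read 5' to 3' on the strand of the gene, with the cores of the A box and of the B box in capitals (from RefSeq, build WBcel235, the same as ce11). The first 8 belong to the 12 strongest tRNA peaks, but not every gene of those peaks is shown. M02F4.t1, at the strongest peak, and F52H2.t2 are left out, and their sequences hold no A box core in its place. The last is the single selenocysteine gene, in which no A box core was found. Among all 173 bound genes the A box core was found in 138 (79.8%). Some of the genes shown have identical copies that were not bound.
F15G9.t1, Ala, chrX:9743589-9743660, plus strand: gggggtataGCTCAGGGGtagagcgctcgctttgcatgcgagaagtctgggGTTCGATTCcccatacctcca
F15G9.t2, Ala, chrX:9743747-9743818, plus strand: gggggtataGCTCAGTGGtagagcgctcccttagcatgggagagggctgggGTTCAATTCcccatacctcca
C38C6.t1, Leu, chrII:14635335-14635416, minus strand: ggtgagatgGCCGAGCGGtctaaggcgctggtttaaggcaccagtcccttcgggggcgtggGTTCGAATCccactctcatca
R04A9.t1, Gln, chrX:410391-410462, plus strand: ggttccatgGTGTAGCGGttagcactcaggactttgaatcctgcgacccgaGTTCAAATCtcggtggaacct
T23F1.t1, Lys, chrV:15465086-15465158, plus strand: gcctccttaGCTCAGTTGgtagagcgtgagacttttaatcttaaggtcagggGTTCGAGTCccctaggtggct
T23F1.t2, Pro, chrV:15465225-15465296, minus strand: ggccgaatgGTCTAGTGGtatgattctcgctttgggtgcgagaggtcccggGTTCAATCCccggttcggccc
C06G1.t1, His, chrX:16634830-16634901, minus strand: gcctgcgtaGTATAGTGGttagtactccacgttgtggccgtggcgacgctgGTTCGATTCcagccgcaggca
R11.t1, Tyr, chrX:16209769-16209852, minus strand: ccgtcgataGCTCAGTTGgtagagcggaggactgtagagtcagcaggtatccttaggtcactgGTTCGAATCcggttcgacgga
K11H12.t1, Sec (selenocysteine), chrIV:658181-658266, plus strand: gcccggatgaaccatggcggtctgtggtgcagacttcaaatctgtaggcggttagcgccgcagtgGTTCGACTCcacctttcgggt
The Pro sequence of T23F1.t2 is also that of F46G11.t1 and F46G11.t2 on X, which share another of the strongest peaks. The His sequence of C06G1.t1 is letter for letter that of F28H6.t2, a gene with no summit in any list.

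The core of the A box was searched as GNNNAGNNG starting at base 7 to 13 of the gene, and the core of the B box as GTTCNANNC anywhere in the gene, both on the gene's strand. The A box core was found in 454 tRNA genes (74.2%), at a median position of base 10, and in 1.55% of all nuclear windows of 15 bases on either strand. The B box core was found in 587 (95.9%), at a median position of base 52, and in 1.23% of all windows of 72 bases, the median gene length. A run of TTTT within 40 bp past the gene was found in 605 (98.9%), but 44.4% of all windows of 40 bases hold one. Anticodons were read from the stem-loop in 595 genes and matched the annotated amino acid in 593. Of the rest, 1 had no annotated amino acid and 1, annotated as Gln, read as Glu.

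The share of tRNA genes bound was several times the share over all genes. In the reproducible set 28.3% of tRNA genes were bound (interval 24.7 to 32), against 3.78% of all 46890 genes and 5.51% of the genes other than piRNA genes. Positions within 250 bp of a reproducible summit made up 1.13% of the nuclear genome. Among the other classes, 81 of 346 snoRNA genes (23.4%, interval 19 to 28.2), which guide RNA modification, and 21 of 129 snRNA genes (16.3%, interval 10.4 to 23.8), which serve splicing, were bound. Of 19973 protein-coding genes 907 (4.54%) were bound. The tRNA and snoRNA intervals overlap, while the protein-coding share lay far below both.

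Both replicates gave a high share on their own. Among the 2285 strongest peaks of replicate 1, 172 tRNA genes (28.1%) had a summit, against 3.77% of all genes. Among the 2285 strongest of replicate 2, 141 (23.0%) had one, against 3.54% of all genes. The mean over the replicates was 156.5 tRNA genes ± 21.9 (SD, n = 2), so replicate 2 placed fewer tRNA genes among its strongest peaks.

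In the whole lists, which hold weak peaks and background by the authors' design, more than 1 in 2 of the tRNA genes had a summit. The pooled list gave 361 tRNA genes (59.0%), against 12% of all genes. The list of replicate 1 gave 393 (64.2%), against 15.8%, and that of replicate 2 gave 355 (58.0%), against 17.1%. These lists put 6.54%, 10.2% and 11.6% of the genome within 250 bp of a summit. Thus 176 tRNA genes (28.8%) had no summit in any list, and 312 had one in both replicate lists.

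Few annotated tRNA pseudogenes, copies that have decayed, were bound. Of 209 tRNA pseudogenes 2 were bound (0.957%, interval 0.116 to 3.41), D1046.t1 on IV with a signal of 99.2 and T08B2.t1 on I with a signal of 170. The pooled list placed a summit at 19 of them (9.09%), below its share over all genes. In both lists the decayed copies lay below the share over all genes, and the tRNA genes above it. A low share was not particular to decayed tRNA copies. Of the 2128 genes annotated as pseudogenes, 0.423% were bound in the reproducible set and 3.52% had a summit in the pooled list.

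The summit lay over the gene itself rather than upstream of it. At the 173 bound genes the median position was 26 bp downstream of the 5' end, with quartiles at -15 and 54 bp. The summit was inside the gene at 116 (67.1%), upstream at 46 (26.6%) and past the 3' end at 11 (6.36%). The A and B box cores, at median bases 10 and 52, lie on either side of the median summit.

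The 3 other classes measured this way had their summits mostly upstream. Their median position was -29 bp at snoRNA genes, -25 bp at snRNA genes and -137 bp at protein-coding genes, where 9.92% of summits lay inside the gene. The tRNA position was much the same in each replicate's strongest peaks, with medians of 29.5 bp in replicate 1 and 24 bp in replicate 2. Summits inside the gene made up 52.9% and 57.4% there, less than in the reproducible set. The bound tRNA gene with the farthest summit was 211 bp away, the nearest summit beyond the window was 259 bp away, and 16 tRNA genes had a nearest summit beyond 250 and up to 500 bp.

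**Figure D1:**
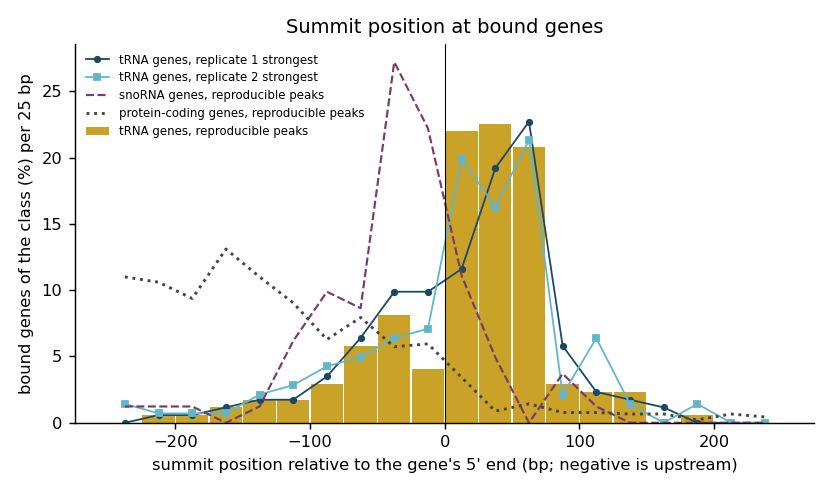
Percent of the bound genes of a class (y axis) whose nearest summit falls in each 25 bp interval around the 5' end (x axis, bp along the gene). Bars are tRNA genes in the reproducible set, lines with points are tRNA genes in the strongest peaks of each replicate, and broken lines are snoRNA and protein-coding genes; the tRNA bars are highest from 0 to 75 bp, the other classes upstream.

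The tRNA peaks were of moderate signal. The authors' signal, whose scale is not given in the sources used here, ranked peaks within a list. It ran from 58.7 to 228 over the 162 tRNA peaks, with a median of 81.6, against a median of 93.7 over the other 2123 peaks. None of the 100 strongest peaks was a tRNA peak, and the best tRNA peak ranked 168. Of the peaks after the first 100 and up to rank 500, 15 (3.75%) were tRNA peaks, and of those after rank 1500 and up to 2285, 73 (9.3%) were.

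With longer lists the tRNA share grew more than that of the other classes. Among the 250 strongest pooled peaks 0.654% of tRNA genes had a summit, close to the 0.606% of protein-coding genes and below the 6.2% of snRNA genes. At 1500 peaks the tRNA share was 15.8% and the snoRNA share 20.8%. At 5000 peaks the tRNA share was 47.4%, the snoRNA share 28.9% and the protein-coding share 8.07%. The reproducible set is the 2285 strongest pooled peaks, and that cut fell within the range of the tRNA peaks. The strongest tRNA gene left out had a pooled signal of 58.6. In the pooled list, the nearest peak of 118 tRNA genes ranked after 2285 and up to 5000, among them F15G9.t2, which was bound through another peak.

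**Figure D2:**
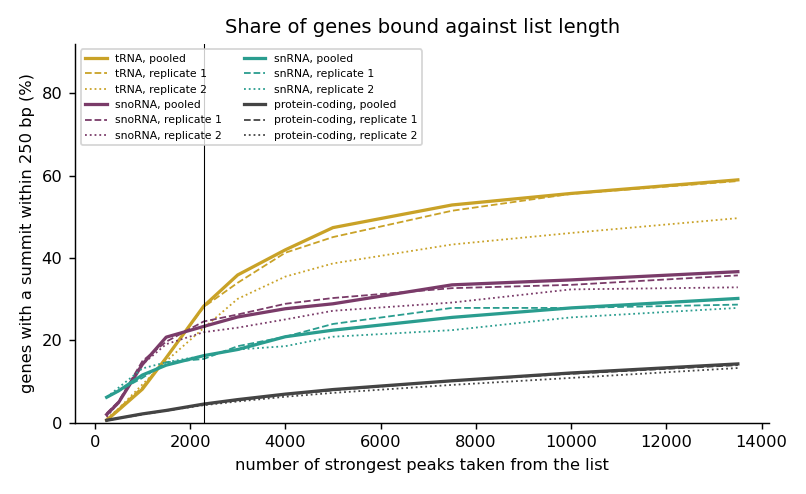
Percent of genes of 4 classes with a summit within 250 bp (y axis) when the stated number of strongest peaks is taken from a list (x axis), for the pooled list (solid) and each replicate (broken). The vertical line marks 2285 peaks; the tRNA curve starts lowest with the protein-coding one and passes the snoRNA and snRNA curves.

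Of the 173 bound genes 172 had a summit in both whole replicate lists, which the choice of reproducible peaks by IDR favours. The exception was ZK783.t1, a Glu gene in an intron of upp-1 on III, with signals of 68.5 in the reproducible set and 50.7 in replicate 1, and no replicate 2 summit. Of the 172 and 141 tRNA genes at the strongest peaks of replicates 1 and 2, 116 were common, which is 67.4% of the first and 82.3% of the second. With the replicate summit nearest to each reproducible summit, the signals of the tRNA peaks had a Spearman's rho of 0.45 between replicates over 161 peaks, and those of the other peaks 0.67 over 2114. This is a description: peaks share their libraries, and the other peaks span a wider range of signals. The replicate summits lay a median of 29 bp apart at the tRNA peaks and 26 bp at the others.

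**Figure D3:**
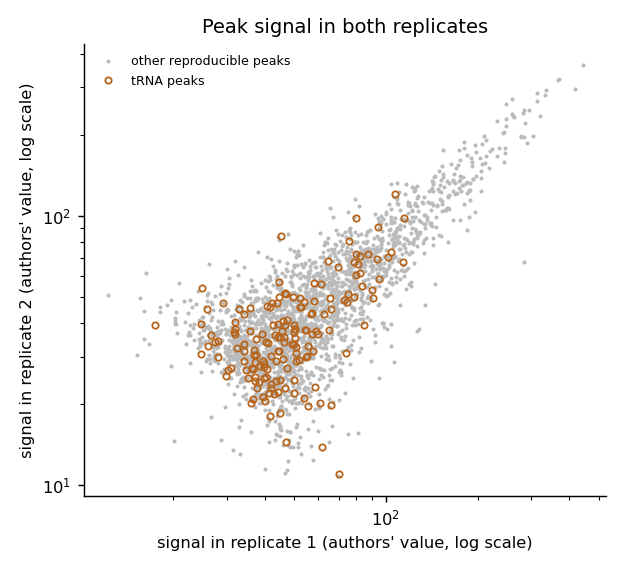
Authors' peak signal in replicate 1 (x axis, log scale) and replicate 2 (y axis, log scale) at the tRNA peaks (open circles) and at the other reproducible peaks (grey points), each with the replicate summit nearest to the reproducible one. The tRNA peaks span 17.4 to 115 in replicate 1 and 11 to 121 in replicate 2, and none lies among the strongest peaks at the upper right.

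The strongest tRNA peak lay between M02F4.t1, a Gly gene, and M02F4.t2, a Glu gene on the other strand, whose 5' ends are 117 bp apart on X. Its signal was 228 in the reproducible set, 107 in replicate 1 (rank 267) and 121 in replicate 2 (rank 116). The next was at the Ala pair F15G9.t1 and F15G9.t2, inside an intron of him-4, with 214 in the reproducible set. At F15G9.t1 the signals were 115 in replicate 1 and 97.8 in replicate 2, with summits 57 and 53 bp into the gene. F15G9.t2, 158 bp further on, was called through the same peak, and its own nearest summits in the replicates were weak, at 21.1 and 22.2. So 1 strong peak can mark a pair of genes of which 1 holds the summit, and 13 of the 162 tRNA peaks lay near 2 tRNA genes.

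On the autosomes the strongest peaks lay at genes for Cys, Leu, Lys and Pro. C37A2.t1, a Cys gene in an intron of cye-1 on I, had signals of 186 in the reproducible set, 94.5 in replicate 1 and 90.6 in replicate 2. C38C6.t1, a Leu gene of unique sequence in an intron of sre-13 on II, had 179, 102 and 70.6. T23F1.t1 and T23F1.t2, genes for Lys and Pro 210 bp apart on V, shared a peak of 174, with 104 in replicate 1 and 73.4 in replicate 2. Replicate 1 gave the higher value in each of these, although signals of separate lists are not on 1 known scale.

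On X, C06G1.t1, the His gene shown, had signals of 166, 93.6 and 69.1 in the same order. F46G11.t1 and F46G11.t2, the Pro pair, shared a peak of 164, and their nearest summits had 85 in replicate 1 and 39.3 and 79.6 in replicate 2. F52H2.t2, an Asn gene, had 160, 75.5 and 81. These replicates were alike in rank at C06G1.t1, at 377 and 434, and less so at F52H2.t2, at 587 and 292. R11.t1, a Tyr gene in a cluster of 4, had 156, 87.4 and 71.9, and rte-1, a Glu gene, had 151, 79.5 and 72.3.

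R04A9.t1, a Gln gene on X, had its strong peak well upstream. The reproducible peak of 178 had its summit 197 bp upstream of the gene, replicate 1 had one of 114 at 194 bp upstream, and replicate 2 one of 67.5 at 197 bp upstream. Replicate 2 also listed a weak summit of 17.3 at 17 bp into the gene. The strong peak thus stood at nearly the same place in both replicates. At Y7A9D.t3, the strongest Val gene, the reproducible signal was 140, with 69.4 in replicate 1 at 53 bp into the gene and 64.8 in replicate 2 at 113 bp from the 5' end, past the gene.

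The X chromosome held 276 of the tRNA genes (45.1%), or 15.6 per Mb against 4.07 per Mb on the autosomes. The share bound did not follow that density. On X 79 of 276 were bound (28.6%, interval 23.4 to 34.3), and on the autosomes 94 of 336 (28%, interval 23.2 to 33.1). Each replicate's strongest peaks gave 28.6% and 23.6% on X and 27.7% and 22.6% on the autosomes. Among single autosomes the share ran from 20.5% on V (16 of 78) to 35.2% on IV (25 of 71), with overlapping intervals. Bound genes per Mb therefore numbered 4.46 on X and 1.14 on the autosomes.

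Binding was found in introns about as often as between genes. Of 283 tRNA genes in introns of protein-coding genes 86 were bound (30.4%, interval 25.1 to 36.1), and of 320 between genes 84 were (26.2%, interval 21.5 to 31.4). In introns the share was 30% where the host gene ran on the same strand (48 of 160) and 31.1% where it ran on the other (38 of 122). All these intervals overlap. Of 9 tRNA genes whose 5' end lies in an annotated exon 3 were bound: K02D7.t1 in grl-26, K04A8.t2 in lipl-4 and C28G1.t1 in C28G1.2. Their nearest peaks had signals of 80, 74.1 and 121. Another reproducible peak lay within 250 bp of C28G1.t1, with 79.6 in replicate 1 and 98.1 in replicate 2.

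Few tRNA genes, bound or not, lay near the start of a protein-coding gene: 95 of the 612 were within 500 bp of one. A protein-coding 5' end lay within 250 bp of the summit at 12 of the 162 tRNA peaks. The same share over the other reproducible peaks is not given here. The bound share was 34.7% (33 of 95) for tRNA genes within 500 bp of such a 5' end, 27.8% (67 of 241) beyond 500 and up to 2000 bp and 26.4% (73 of 276) farther away, with overlapping intervals. At 48 peaks (29.6%) no gene of another class began within 250 bp of the summit.

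Annotated ncRNA genes often lie at tRNA genes, and they moved with binding. An ncRNA 5' end lay within 250 bp of 121 of the 173 bound tRNA genes (69.9%) and of 250 of the 439 others (56.9%). Among the 167 tRNA genes with no 5' end of another class within 500 bp, 37 were bound (22.2%, interval 16.1 to 29.2), against 136 of 445 (30.6%, interval 26.3 to 35.1) of the rest. When each summit was given only to the nearest 5' end of any gene, 115 tRNA genes kept one. Over the genome 6.87% of all ncRNA genes were bound, a share that is not limited to those near tRNA genes. The part of neighbouring genes in the tRNA result was not tested.

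Solitary tRNA genes were bound more often than clustered ones. A gene was called clustered when another tRNA 5' end lay within 2000 bp. Of 343 solitary genes 117 were bound (34.1%, interval 29.1 to 39.4), and of 269 clustered genes 56 were (20.8%, interval 16.1 to 26.2). The replicates' strongest peaks gave 33.2% and 27.7% for solitary genes and 21.6% and 17.1% for clustered ones. The 2 intervals do not overlap, but they count each gene as independent, and 13 of the 162 tRNA peaks lay near 2 tRNA genes. Each replicate shows the same order.

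In the reproducible set the share was lower in larger clusters. It was 23.5% in pairs (40 of 170), 19% in clusters of 3 (8 of 42), 17.9% in clusters of 4 (5 of 28) and 10.3% in clusters of 5 or more (3 of 29). The last 3 groups are small, their intervals overlap widely, and the order among them was not the same in every list. The strongest peaks of replicate 2 gave 7.14% in clusters of 4 and 10.3% in larger ones, and the whole pooled list gave 60.7% in clusters of 4, above the 52.9% of pairs. In the reproducible set the order of solitary over clustered held on X (39.2% and 19.9%), on the autosomes (31.2% and 22%), in introns (36.5% and 20.0%) and between genes (31.2% and 21.5%). The intervals overlap on the autosomes (25.1 to 37.8 and 14.9 to 30.6) and between genes (24.1 to 39.1 and 15.4 to 28.6). They do not overlap on X or in introns. In the whole pooled list 64.1% of solitary and 52.4% of clustered genes had a summit. On the autosomes the whole lists did not keep the order: the list of replicate 1 gave 61.5% of solitary and 69.5% of clustered genes, and that of replicate 2 gave 55% and 54.2%. On X they gave 75.2% and 55% in replicate 1 and 76.8% and 49.7% in replicate 2.

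**Figure D4:**
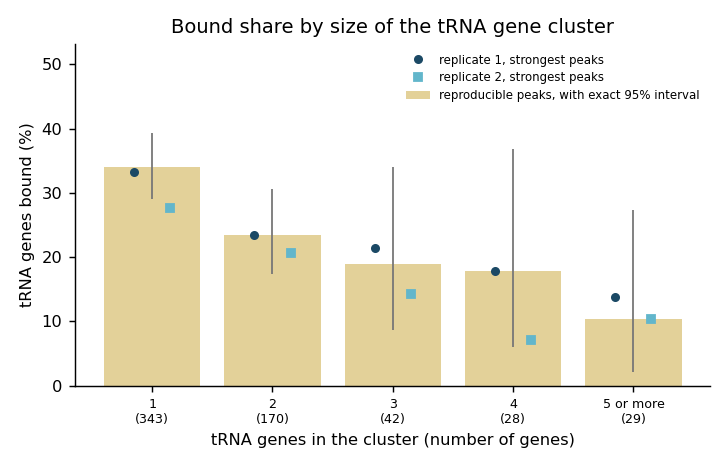
Percent of tRNA genes bound (y axis) by the number of tRNA genes in the cluster (x axis, with the number of genes in parentheses). Bars are the reproducible set with exact 95% intervals and points the strongest peaks of each replicate; the bars run from 34.1% for solitary genes to 10.3% in clusters of 5 or more, while the replicate 2 points are lowest in clusters of 4.

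How much of the sequence around a gene is unique also moved with binding. Of the 31-base words in the 500 bp around the 5' end, at least 80% occurred once in the genome at 493 tRNA genes, of which 152 were bound (30.8%). At the other 119 genes 21 were bound (17.6%, interval 11.3 to 25.7). Among genes with 80% or more unique words, 36.7% of solitary and 20.9% of clustered genes were bound, so the difference was as large there. Among the rest it turned, with 3 of 32 solitary genes (9.38%) and 18 of 87 clustered genes (20.7%) bound. How reads of repeated sequence were treated is not given in the sources used here.

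The largest clusters show both patterns. The largest held 8 genes, F22F1.t2 to F22F1.t9 on X, of which 1 was bound. That gene, F22F1.t5, is an Asp gene of unique sequence, with signals of 68.7 in the reproducible set, 44.8 in replicate 1 and 24.6 in replicate 2 and a summit 5 bp into the gene. Its neighbour F22F1.t7, an Ile gene, had a pooled peak of 57.6, just under the reproducible set, and F22F1.t4, a Ser gene, had no summit in any list.
F22F1.t5, Asp, chrX:8155752-8155823, plus strand: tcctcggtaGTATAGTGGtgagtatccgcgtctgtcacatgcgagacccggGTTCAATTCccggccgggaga
The sequence of F22F1.t5 is shown, with the box cores in capitals, as the only bound member of the largest cluster. In contrast, the 6 His genes F28H6.t2 to F28H6.t7, the largest cluster with none bound, had no summit in any list. Their share of unique words ran from 3.18% to 85.8%, and F28H6.t2, with 85.8%, has the same gene sequence as the strongly bound C06G1.t1, which had 87.7%.

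Identical genes were not called bound alike in the reproducible set. The 612 genes had 200 distinct sequences, 143 of them found once. Of the 57 repeated sequences 41 had bound and unbound copies, 11 had no bound copy and 5 had all copies bound. Of genes of unique sequence 28 of 143 were bound (19.6%, interval 13.4 to 27). The share was 37.8% (31 of 82) for genes of 2 to 5 copies, 30.7% (71 of 231) for 6 to 15 and 27.6% (43 of 156) for more than 15. Genes of unique sequence also made up 72 of the 176 tRNA genes without a summit in any list, and 71 of the other 436.

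Each of the 20 sequences with 10 or more copies, 317 genes in all, had a copy bound in the reproducible set. There none had more than 50% bound, beside 28.3% of all tRNA genes. The lowest share, 16.7%, was that of the Asn sequence (3 of 18) and of a Val sequence (2 of 12). The highest was that of an Arg sequence read by anticodon ACG, with 5 of 10 copies bound, all 10 on X. The strongest peaks of replicate 1 gave 3 of these 10 and those of replicate 2 gave 5, so it was highest in neither: a Gly sequence (anticodon GCC) had 5 of 11 in the first, and the Cys sequence 7 of 12 in the second. The most common sequence, Gly with anticodon TCC, had 6 of 29 copies bound, and an Asp sequence had 10 of 21. The replicates' strongest peaks gave 9 and 6 for this Asp sequence, and 6 and 3 for the Gly sequence. In the whole pooled list, which holds weaker peaks, the copies with a summit ran from 4 of 11 for a Ser sequence to 11 of 12 for the Cys sequence. Many copies called unbound thus had a weaker pooled peak.

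There were 3 sequences of exactly 2 copies with 1 copy bound, and the flanks of 2 of them are shown because the genes themselves are identical. The gene comes first, with the box cores that were found in capitals, then the 30 bases just upstream of the bound copy and of the other copy. All are 5' to 3' on the gene's strand, and no A box core was found in ZC455.t1.
R04D3.t2, Val, chrX:13307034-13307106, plus strand: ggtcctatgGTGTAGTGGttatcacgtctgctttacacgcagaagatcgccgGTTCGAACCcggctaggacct
R04D3.t2, upstream, bound copy: agcaggcaactagtttgaatactgacatgt
T25E4.t1, upstream, other copy on II: taatggcctattgggatcactttttcgtcc
ZC455.t1, Ser, chrV:12780386-12780467, minus strand: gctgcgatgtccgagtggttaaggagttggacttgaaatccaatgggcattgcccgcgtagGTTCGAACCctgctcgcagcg
ZC455.t1, upstream, bound copy: taaatgccctgtttgctgttgaaatggcgt
B0395.t1, upstream, other copy on X: aaacacttcctaagaaaggcgactccctgt
R04D3.t2 had signals of 96.9 in the reproducible set, 46.8 in replicate 1 and 51.1 in replicate 2. The copy T25E4.t1 had a pooled peak of 47.2, and 23.9 and 18.9 in the replicates. ZC455.t1 had 69.3, 36.9 and 31.8, and B0395.t1 a pooled peak of 34.1, with 18.5 and 14.5. In both pairs the other copy thus had a weaker peak in both replicates rather than none. In the third pair, of Phe genes, Y39B6A.t9 had 58.7 at the lower end of the reproducible set, and Y53C12A.t1 a pooled peak of 39.8 and no summit in replicate 2.

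The amino acids could not be told apart by their bound shares at these numbers of genes. Bound genes were found for all 20 standard amino acids, and the single selenocysteine gene, K11H12.t1, was bound too. The share ran from 10.5% for Tyr (2 of 19, interval 1.3 to 33.1) to 44.4% for Asp (12 of 27, interval 25.5 to 64.7), and these intervals overlap. Leu followed Asp with 41.0% (16 of 39), and Asn lay next to Tyr with 15% (3 of 20). None of the 5 genes of undetermined amino acid was bound.

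The replicates moved the order of the amino acids. Asp had 44.4% in the strongest peaks of replicate 1 and 22.2% in those of replicate 2. Cys had 38.5% and 53.8%, Gly 23.6% and 9.09%, and Tyr 10.5% in both. Tyr was thus low in both replicates, while the place of Asp rested on replicate 1.

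**Figure D5:**
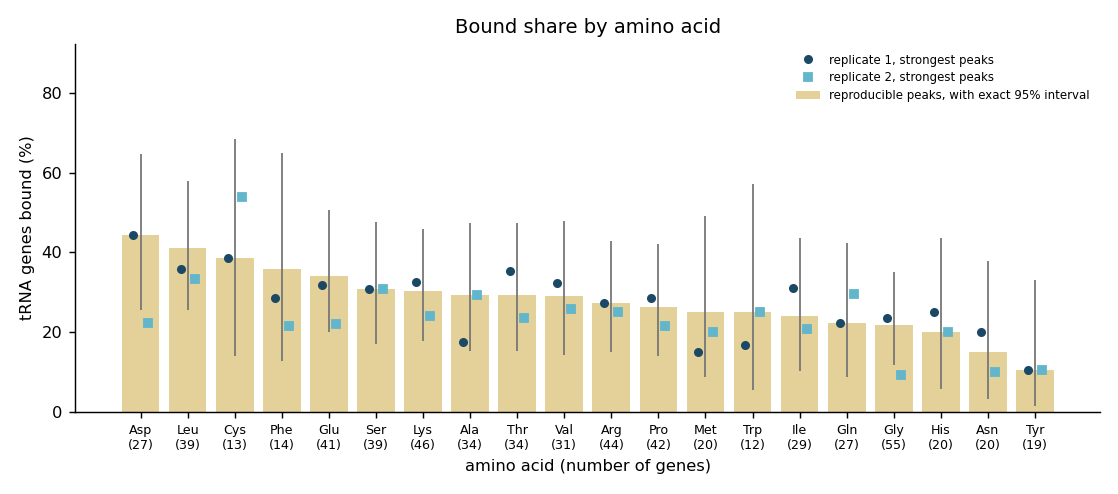
Percent of tRNA genes bound (y axis) by amino acid (x axis, number of genes in parentheses), for amino acids with 10 or more genes. Bars are the reproducible set with exact 95% intervals, points the strongest peaks of each replicate; the intervals of Asp at 44.4% and Tyr at 10.5% overlap.

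Within 1 amino acid the bound counts differed by anticodon, but the intervals of the groups compared here overlap. For Leu, 4 of 19 genes with anticodon AAG were bound (21.1%), and all 3 with TAG were. For Ser, 2 of 15 with AGA (13.3%) and 4 of 6 with CGA (66.7%) were bound, and for Val 3 of 19 with AAC (15.8%) and 4 of 6 with CAC (66.7%). The replicates' strongest peaks gave 66.7% each for Ser CGA and for Val CAC. The intervals were 3.38 to 39.6 for Val AAC and 22.3 to 95.7 for Val CAC. The whole lists did not keep each difference. The pooled list gave 68.4% for Val AAC and 66.7% for Val CAC, and the list of replicate 1 gave 66.7% for both Ser AGA and Ser CGA. For Leu the pooled list kept the order, with 42.1% for AAG and 100% for TAG. These were picked out among 47 anticodons after their values were seen, and the groups are small.

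The strongest bound genes of the remaining amino acids had moderate signals. They were C53C7.t1 for Ser (142), F47G6.t1 for Arg (139), ZK563.t1 for Thr (133), C42D8.t1 for Ile (131), T28B4.t1 for Phe (106) and C35E7.t1 for Asp (104). T28B4.t1 had its summit 7 bp into the gene in the reproducible set and in each replicate, with 58.3 and 48.4 there. T15B12.t1, the strongest Met gene, had 77.4 and summits 53 and 48 bp into the gene in the replicates. K11H12.t1, the selenocysteine gene, had 71.3 with its summit 89 bp upstream, and 55.4 and 19.7 in the replicates.

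Some tRNA genes carry a locus name from genetics, among them sup-5 and sup-7, Trp genes in which mutations suppress amber stop codons. Both were bound, sup-5 with a signal of 88.9 in the reproducible set and 42.3 and 47.5 in the replicates, sup-7 with 85.0 and 50.8 and 32.5. The Trp gene rtw-6 was bound as well, with 58.7 at the lower end of the set. The Trp genes sup-24, sup-29 and sup-33 had no summit in any replicate list, and sup-21 and sup-28 had one in a single replicate. In all, 6 of 14 tRNA genes with such a name were bound, including the Glu genes rte-1, rte-2 and rte-5.

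The A box core was in 138 of the bound genes (79.8%) and 316 of the others (72.0%), the B box core in 168 (97.1%) and 419 (95.4%), and the T run in 172 (99.4%) and 433 (98.6%). Of the 158 genes without the A box core in its place 35 were bound (22.2%, interval 15.9 to 29.4), against 30.4% of those with it (interval 26.2 to 34.9), and the intervals overlap. A first search, with the A box core allowed anywhere in the gene, gave a wider difference, 30.1% bound of the 531 genes with it and 16% of the 81 without it. With both cores 30.6% of 434 genes were bound, and with neither 0 of 5. tRNA genes with an intron of their own were bound about as often, 8 of 29 (27.6%), as those without, 165 of 583 (28.3%).

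Genes whose products make and process tRNA were looked at beside the tRNA genes. Of a list of 26 such genes, which holds subunits of RNA polymerase III, TFIIIB and TFIIIC subunits and processing enzymes, 2 had a reproducible summit within 250 bp (7.69%), against 4.54% of all protein-coding genes. They were rpb-8, a subunit shared by the RNA polymerases, with a signal of 69 and a summit 143 bp upstream, and pus-1, a pseudouridine synthase, with 63.0 and 224 bp upstream. The signals in replicates 1 and 2 were 50.3 and 21.1 at rpb-8 and 40.1 and 22.2 at pus-1. In the whole lists of replicates 1 and 2, 8 and 6 of the 26 had a summit (30.8% and 23.1%), against 18.2% and 19.1% of all protein-coding genes. These counts are small in each list.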

How the data were processed

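The data were TF ChIP-seq peak lists of 2 biological replicates of 1 group. The 4 lists on ce11 were used: 1 per replicate (21272 and 24201 peaks), 1 of the replicates pooled (13500), and the reproducible set (2285), chosen by the authors at an IDR threshold (a measure of how well replicates match). Per the deposited notes, the other lists are relaxed input to IDR. The signal of each peak is the authors' deposited value and served to order the peaks of 1 list. The −log10 q value in the deposited lists served only to break ties. The summit position is another deposited value. No source used here names the aligner, the peak caller, the scale of the signal or the IDR threshold. The control and the ce10 lists were not analysed here. The depth is unknown.

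Summits were set against the gene starts of Ensembl release 115. Amino acids and sequences came from RefSeq (WBcel235), where all 612 genes had the same coordinates, and anticodons were read from the 5 paired and 7 loop bases of the stem-loop. The summit nearest to the 5' end gave a gene's position and signal. Where the nearest replicate summit belonged to another peak, the one nearest to the reproducible summit was also read, a comparison added after seeing the data. The whole lists differ in length, so replicates were compared over their 2285 strongest peaks; those of the pooled list are the reproducible set. Shares have exact 95% intervals, computed with scipy 1.17.1, numpy 2.4.6 and pandas 2.3.3 in Python 3.11.15. Genes are not replicates, so no test of chance was run. The measures were tested on simulated data. The genes, lists and rules were chosen with earlier results of these data known, and the letters of the box cores were changed once after a first search. Genes were named by rule: those of the 12 strongest tRNA peaks, the strongest of each amino acid, in introns and on X, the clusters with most genes bound or unbound, identical pairs with 1 copy bound, and genes missing from 1 replicate list. A peak named a gene only where its summit was the one nearest to the 5' end, so the other peak at C28G1.t1 named none. Genes in exons, the largest cluster and genes with locus names were added with their values known. Alternatives were other windows, lists, assignments and definitions of clusters, and each replicate left out.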

Additional observations from a re-analysis of the deposited data

How the results depend on the processing

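Of 56 alternative values 31 stayed close to the value reported and 25 moved. Close meant within a fixed factor for the count of bound genes, and within the SD of the 2 replicates for the other values. Only the median summit position could be called reversed, by a change of sign, and it kept its sign in each setting. A turn in the order of 2 shares was not part of this count. The 2285 strongest pooled peaks are the reproducible set itself, so its 8 values are not counted. The count of 173 bound tRNA genes became 60 with only the 1143 strongest peaks, 361, 393 and 355 with the whole pooled, replicate 1 and replicate 2 lists, 115 when each summit went only to the nearest 5' end of any gene, and 37 among the 167 genes with no other 5' end within 500 bp. Leaving out a replicate gave 141 to 172. Windows of 100 and 500 bp gave 154 and 189.

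With these 1143 peaks the shares fell to 8.83% in introns, 10.6% between genes, 11.2% on X, 8.63% on the autosomes, 8.55% for clustered and 10.8% for solitary genes. A window of 100 bp gave 22.5% between genes, 25% on X and 15.6% for clustered genes, and one of 500 bp gave 29.4% between genes and 25.3% for clustered genes. Leaving out a replicate gave 24% to 29.7% in introns, 21.9% to 26.2% between genes, 23.6% to 28.6% on X, 22.6% to 27.7% on the autosomes, 17.1% to 21.6% for clustered and 27.7% to 33.2% for solitary genes, and median summit positions of 24 to 29.5 bp. Among genes with no other 5' end within 500 bp, an alternative chosen after seeing the data, 15.7% of clustered and 26.8% of solitary genes were bound. Solitary genes had the higher share in 9 of 9 such settings, but not among genes with under 80% unique words (9.38% against 20.7%), nor on the autosomes in the whole list of replicate 1. The cause of these moves was not tested, beyond the fewer or more peaks and genes that a setting takes.

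In the first search, with the B box core as GTTCGANNC, the bound shares with and without it were 28.6% of 441 and 27.5% of 171. No paired analysis was possible because there is 1 group. With 2 replicates and no read counts, shares of small groups, such as single amino acids, are resolved only within their intervals.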
